A study of Mus musculus with 2 samples.

Results

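The LY6 family genes Ly6a, Ly6c1, Ly6c2, Ly6d, Ly6e, Ly6g, Ly6i and Ly6k, with Thy1, were followed as a group of 9 genes among the 55487 gene IDs of the count table. They were chosen by name, with earlier results of these data known, as genes whose products include antigens used to sort mouse blood cells. RNA was sequenced from colonies of lineage-negative C57BL/6 mouse bone marrow cells, 1 library per vector. The first culture carried the retroviral vector pMYs-IG for HA-tagged EVI1+18, a product of aberrant EVI1 splicing, and the second carried the same vector for HA-tagged EVI1-WT. Both forms were stably overexpressed from the retrovirus, no untransduced culture was analysed here, and the comparison asks how the aberrant form changes the colonies relative to the wild-type form. Cells positive for GFP were sorted 3 days after infection, and 10000 of them were grown for about 3 weeks in a semi-solid medium.

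LY6 proteins are small disulfide-bonded surface proteins held in the outer leaflet of the membrane by a glycosylphosphatidylinositol (GPI) anchor. They share the 3-finger fold of the LY6/uPAR family. Thy1 (CD90) is also GPI-anchored but belongs to the immunoglobulin superfamily. In mouse marrow these proteins define populations: Ly6a (Sca-1) marks stem cells and early progenitors, Ly6g marks neutrophils, the Ly6C antigen encoded by Ly6c1 and Ly6c2 marks monocytes and other cells, and Thy1 marks T cells and is also found on mast cells and on some progenitors.

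Depth was similar, at 20981903 counts for EVI1+18 (21037 genes detected) and 20480447 counts for EVI1-WT (21013 genes detected). Levels are given as raw counts and as scaled CPM, which is counts divided by the library total in units of 1e6 counts, adjusted by edgeR's TMM factor. With 1 library per vector no difference has a replicate check. The 95% exact (Clopper-Pearson) intervals on the ratio of EVI1+18 over EVI1-WT cover counting error only, so they set one library against the other rather than vector against vector. The 13183 genes that reached 1 scaled CPM in either library are called measured genes here. Such a gene was called lower or higher where its whole interval lay past 2-fold. Mecom, which encodes EVI1, had 4481 counts in the EVI1+18 library and 3612 in the EVI1-WT library. The Y-linked gene Eif2s3y had 1 count in the EVI1+18 library and 2002 in the EVI1-WT library. Xist was low in both, with 4 counts in EVI1+18 and 8 in EVI1-WT. The reason for the difference in Eif2s3y was not tested. If the cells came from different sources, vector and source cannot be told apart.

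The Ly6 genes are close copies, which bears on several values below, and the most alike pair is shown first. The coding sequences of Ly6c2 (393 bases) and Ly6c1 (441 bases) were 90.6% identical over 393 aligned bases. Their first 120 coding bases are printed 5′ to 3′ from GENCODE M21 transcripts on GRCm38, with the 6 bases that differ between them in capitals.
Ly6c2: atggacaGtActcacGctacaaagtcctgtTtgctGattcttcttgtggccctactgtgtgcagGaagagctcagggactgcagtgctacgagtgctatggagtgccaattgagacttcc
Ly6c1: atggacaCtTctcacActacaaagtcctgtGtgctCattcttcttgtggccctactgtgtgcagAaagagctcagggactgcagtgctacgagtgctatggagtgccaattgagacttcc
A read that covers none of the capitals has the same letters in both genes. Ly6a was 86.3% identical to Ly6i, 83.5% to Ly6c2 and 83.1% to Ly6g. Over the whole transcripts, 32.8% of the 50-base words of Ly6c1 also occurred in another gene, as did 19.0% of those of Ly6a and 14.5% of those of Ly6c2. For Ly6g the share was 0.448%, and for Ly6e, Thy1 and Ly6d it was 0. How reads that map to several places were counted is not given in the sources used here, so Ly6a, Ly6c1 and Ly6c2 are uncertain as single genes.

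**Figure D1:**
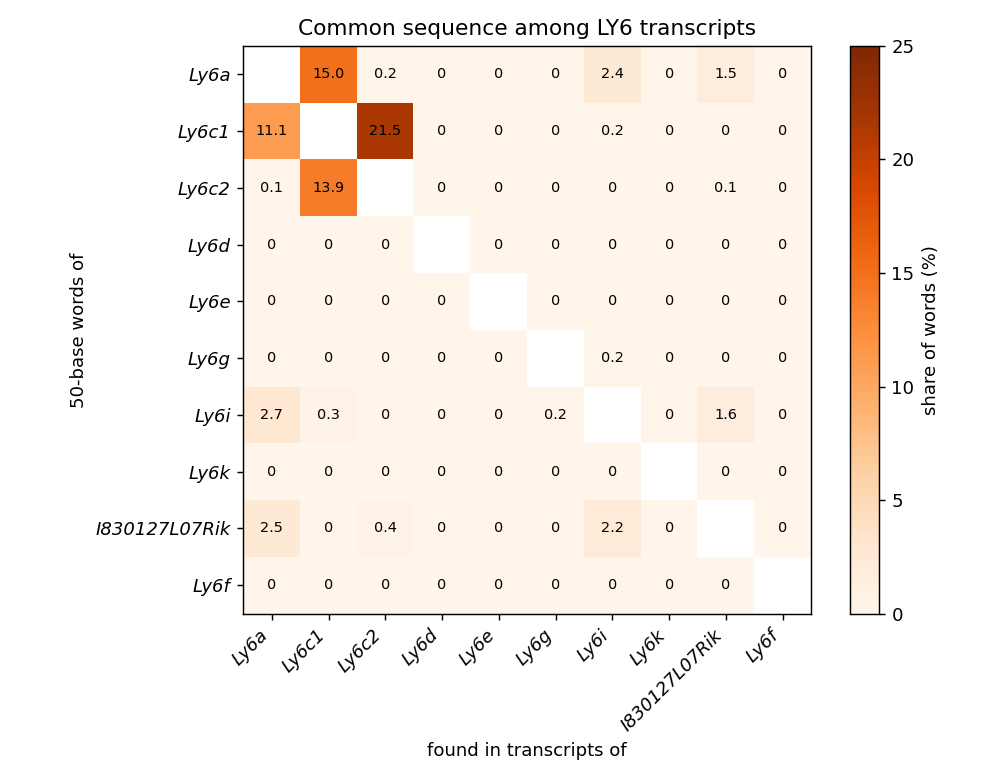
Share of the 50-base words of each gene's transcripts (rows) that also occur in transcripts of another gene (columns), in percent, with white cells on the diagonal. The highest values join Ly6c1 to Ly6c2 (21.5% of the words of Ly6c1) and Ly6a to Ly6c1 (15.03% of the words of Ly6a). Ly6e, Ly6d, Ly6k and Ly6f are at 0 with every other gene drawn.

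Of the 9 genes, 6 were measured, and all 6 were past the filter in both libraries. Ly6g, Ly6c2, Ly6c1, Thy1 and Ly6a were lower in the EVI1+18 library, 0 were higher, and Ly6e was neither. Over all 13183 measured genes, 5.10% were called lower and 5.05% higher. Because the group was chosen with earlier results of these data known, these shares are a background and not a test. The median log2 ratio of the 6 was -1.71, beside 0.01 over all measured genes. The differences ranged from 16.8-fold for Ly6g to 1.16-fold for Ly6e. In bulk RNA, fewer cells of a type and less RNA per cell cannot be told apart.

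**Figure D2:**
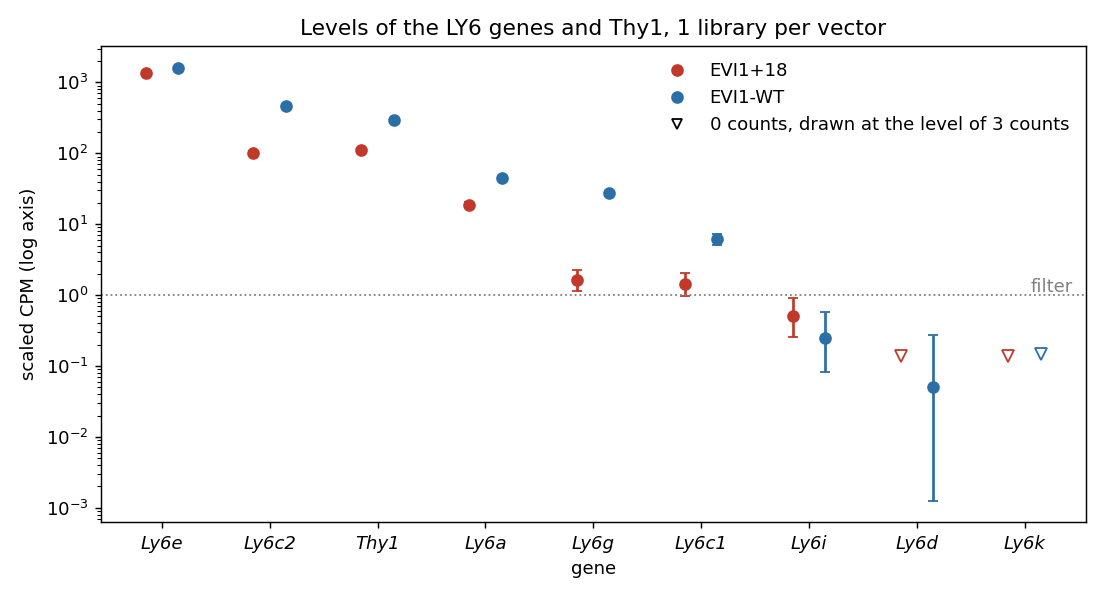
Scaled CPM of the 9 genes on a log axis in the EVI1+18 library (red, left) and the EVI1-WT library (blue, right), with 95% counting intervals that are mostly smaller than the points. Levels span from Ly6e at 1376 scaled CPM in EVI1+18 and 1601 in EVI1-WT to Ly6k at 0 counts in both, and triangles mark 0 counts at the level that 3 counts would give.

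**Figure D3:**
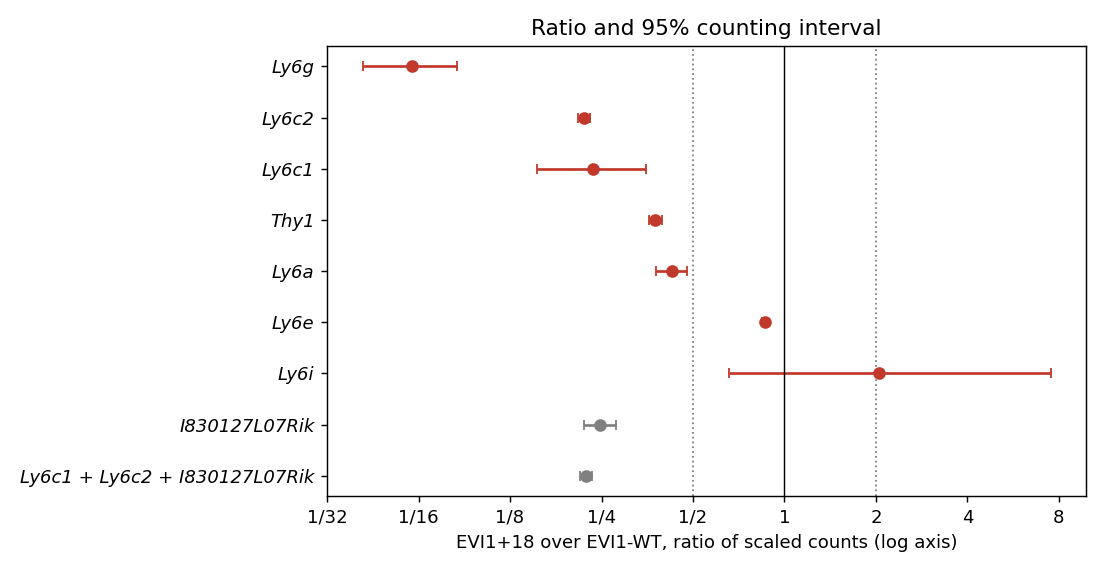
Ratio of scaled counts, EVI1+18 over EVI1-WT, with 95% counting intervals on a log axis. Dotted lines mark 2-fold in each direction. The intervals of 5 genes of the group (red) lie wholly left of 1/2, Ly6e lies just left of 1, and Ly6i has an interval that spans 1. The related gene I830127L07Rik and a sum of near copies are grey.

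Ly6g, the granulocyte antigen, lay on chromosome 15 (GRCm38 chr15:75155240-75159126, plus strand, ENSMUSG00000022582). It had 35 counts in the EVI1+18 library and 550 in the EVI1-WT library, or 1.63 scaled CPM in EVI1+18 and 27.5 in EVI1-WT. That is 16.8-fold lower, with a counting interval of 11.96 to 24.4. Only 54 of the 13183 measured genes had a lower log2 ratio than its -3.996. The EVI1+18 level was close to the filter of 1 scaled CPM, and its 35 counts set the width of the interval.

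Ly6c2, a main source of the Ly6C antigen of monocytes, lay at chr15:75108158-75111970 on the minus strand (ENSMUSG00000022584). It had 2169 counts in the EVI1+18 library and 9265 in the EVI1-WT library, or 101 scaled CPM in EVI1+18 and 463 in EVI1-WT, and was 4.58-fold lower (4.37 to 4.798). By level it ranked 2111th among measured genes in the EVI1+18 library, against 312th in the EVI1-WT library. Ly6c1, its neighbour at chr15:75044018-75048830 on the minus strand (ENSMUSG00000079018), is known in endothelial cells among others. It had 31 counts in EVI1+18 and 123 in EVI1-WT and was 4.25-fold lower in the EVI1+18 library (2.85 to 6.52).

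The counts of Ly6c1 equalled 1.43% of those of Ly6c2 in the EVI1+18 library and 1.33% in the EVI1-WT library. The fold by which Ly6c1 was lower was 0.929 times that of Ly6c2, with an interval of 0.625 to 1.38 that includes 1. Ratios relative to another gene in the same library do not depend on the scaling, and their intervals are large-sample intervals of the log odds ratio. Summed, Ly6c1 and Ly6c2 had 2200 counts in the EVI1+18 library and 9388 in the EVI1-WT library and were 4.57-fold lower (4.36 to 4.79). Nearly all of these counts are those of Ly6c2, so the sum says nothing about Ly6c1 by itself, whose few counts may depend on how reads were split.

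Ly6a, the gene for Sca-1, lay at chr15:74994877-74998031 on the minus strand (ENSMUSG00000075602). It had 405 counts in the EVI1+18 library and 889 in the EVI1-WT library, or 18.9 scaled CPM in EVI1+18 and 44.4 in EVI1-WT, and was 2.35-fold lower (2.09 to 2.65). This call was the closest to the threshold. Scaled by library totals alone, Ly6a was 2.25-fold lower with a lower bound of 1.997, which ends the call. Relative to Ly6a within the library, Ly6c2 was lower by a further 1.95-fold (1.71 to 2.21).

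Thy1, the only gene of the group outside chromosome 15 (chr9:44043384-44048579, plus strand, ENSMUSG00000032011), had 2391 counts in the EVI1+18 library and 5935 in the EVI1-WT library. These are 111 scaled CPM in EVI1+18 and 296 in EVI1-WT, and Thy1 was 2.66-fold lower (2.54 to 2.79). Its difference from Ly6a was within counting error, with a factor of 1.13 between their ratios (0.996 to 1.28). Thy1 shares no 50-base word with another gene, so its ratio does not carry the uncertainty of the Ly6 copies.

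Ly6e, the receptor for the fusogen syncytin-A in the mouse placenta and an interferon-induced gene, was the most abundant of the group (chr15:74955051-74959905, plus strand, ENSMUSG00000022587). It had 29527 counts in the EVI1+18 library and 32063 in the EVI1-WT library, or 1376 scaled CPM in EVI1+18 (rank 68 of the measured genes) and 1601 in EVI1-WT (rank 48). Ly6e was 1.16-fold lower in the EVI1+18 library (1.15 to 1.18), short of the call. Set against Ly6e within each library, Ly6g was 14.5-fold lower in the EVI1+18 library (10.3 to 20.4), Ly6c2 3.93-fold (3.74 to 4.13) and Ly6c1 3.65-fold (2.46 to 5.42). For Thy1 the same measure was 2.29-fold (2.17 to 2.40), and for Ly6a 2.02-fold (1.80 to 2.28).

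The last 3 genes were at or near 0. Ly6i, a close relative of Ly6a, had 11 counts in the EVI1+18 library and 5 in the EVI1-WT library, a ratio of 2.05 with an interval of 0.658 to 7.54. Ly6d, a marker of B-cell-biased lymphoid progenitors, had 0 counts in EVI1+18 and 1 in EVI1-WT, and Ly6k, known from the testis, had 0 in both. Where 0 reads were seen, the one-sided 95% limit from counting error is 3 counts, or 0.140 scaled CPM in the EVI1+18 library and 0.150 in the EVI1-WT library. No difference was detectable at this depth for these 3.

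The makeup of the group's reads differed between the libraries. The 9 genes held 34569 counts in the EVI1+18 library, 0.165% of all counts, and 48831 in the EVI1-WT library, 0.238%. Ly6e took 85.4% of the group's reads in the EVI1+18 library (95% Clopper-Pearson interval 85.0 to 85.8) and 65.7% in the EVI1-WT library (65.2 to 66.1). The share of Ly6c2 was 6.27% in EVI1+18 and 19.0% in EVI1-WT, and that of Thy1 was 6.92% in EVI1+18 and 12.2% in EVI1-WT.

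Per length, as counts per kilobase of merged exons scaled to a fixed library sum (TPM), the order in the EVI1+18 library was Ly6e at 942 TPM, Thy1 at 96.4, Ly6c2 at 95.6, Ly6a at 40.6, Ly6g at 4.49 and Ly6c1 at 2.23. Thy1 and Ly6c2 were within counting error of each other there, with a ratio of 1.01 (0.951 to 1.07). In the EVI1-WT library the order was Ly6e at 1083 TPM, Ly6c2 at 432, Thy1 at 253, Ly6a at 94.3, Ly6g at 74.6 and Ly6c1 at 9.37. There Ly6c2 stood 1.71 times above Thy1 (1.65 to 1.76), and Ly6a 1.26 times above Ly6g (1.13 to 1.41). With the length of the longest transcript the order in each library was the same, but the gaps moved: per kilobase, Thy1 stood at 64.2 scaled CPM and Ly6c2 at 37.7 in the EVI1+18 library, and Thy1 at 171 and Ly6c2 at 173 in the EVI1-WT library.

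Along chromosome 15 the lower genes lay in the Ly6 cluster, from which the group's genes on that chromosome were themselves chosen. Between chr15:74262056 and chr15:75659126, which takes in 500000 bases on either side of the chromosome 15 genes of the group, 60 genes are annotated. Of these, 31 had 0 counts in both libraries and 11 were measured, with 5 lower and 0 higher. Over all measured genes, the shares were 5.10% lower and 5.05% higher. All 5 lower genes lay from Ly6a to Ly6g, a block of 164 kb whose bounds were drawn after the values were seen, with log2 ratios of -3.996 to -1.23. All of them but I830127L07Rik belong to the group, so their lying together is no separate result. The 6 measured genes outside the block had log2 ratios of -0.71 to 0.27.

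The fifth lower gene of the block was I830127L07Rik (chr15:75131377-75135128, minus strand), a pseudogene in GENCODE and the coding gene Ly6a2 in RefSeq. It had 345 counts in the EVI1+18 library and 1301 in the EVI1-WT library, or 16.1 scaled CPM in EVI1+18 and 65.0 in EVI1-WT, and was 4.04-fold lower (3.59 to 4.56). Its 50-base words were shared with Ly6c2 for 0.373% and with Ly6a for 2.49%. The fold by which it was lower was 0.883 times that of Ly6c2 (0.777 to 1.003), an interval that includes 1, and relative to Ly6a it was lower by a further 1.72-fold (1.45 to 2.03).

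Outside the block, Them6 had 471 counts in the EVI1+18 library and 441 in the EVI1-WT library, Jrk had 91 in EVI1+18 and 99 in EVI1-WT, and Zfp41 had 154 in EVI1+18 and 151 in EVI1-WT. The lincRNA gene Gm39556 had 96 in EVI1+18 and 74 in EVI1-WT. Top1mt, a mitochondrial topoisomerase, had 203 counts in EVI1+18 and 311 in EVI1-WT, 1.64-fold lower in the EVI1+18 library (1.37 to 1.97) and short of the call. Genes under the filter were Cyp11b1 with 15 counts in EVI1+18 and 12 in EVI1-WT, Gm5960 with 5 in EVI1+18 and 15 in EVI1-WT, and 2810039B14Rik with 4 in EVI1+18 and 17 in EVI1-WT. Ly6f, a coding neighbour of Ly6g, had 0 counts in both libraries.

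**Figure D4:**
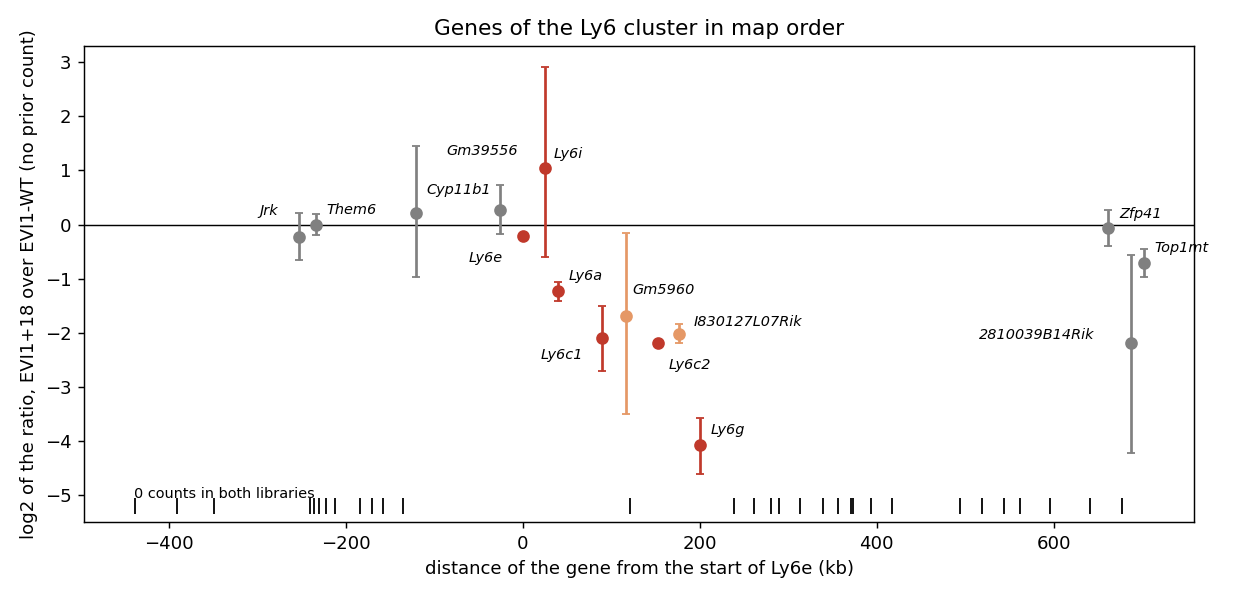
Log2 of the ratio of scaled counts, EVI1+18 over EVI1-WT, with 95% counting intervals, for the 15 genes of the Ly6 region with at least 10 counts in a library, by distance from the start of Ly6e in kb. Red points are genes of the group, orange points are the pseudogenes I830127L07Rik and Gm5960 and grey points are other genes. Ticks at the bottom mark genes with 0 counts in both libraries. The points of Ly6a, Ly6c1, Ly6c2, I830127L07Rik and Ly6g lie below -1, and Ly6e and Them6 lie near 0.

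Promoters from the lower block are shown because the upstream sequences are also copies. The genes were lower by unlike amounts, Ly6g by a further 3.68-fold relative to Ly6c2 (2.61 to 5.19). Whether the promoters have a part in the ratios was not tested. RefSeq promoter entries (GRCm38.p6) matched 3 of the 9 genes, Ly6c1, Ly6c2 and Ly6g. Those of Ly6a, Ly6d, Ly6e, Ly6i, Ly6k and Thy1 were not used here. The 250 bases before the start that RefSeq gives are printed 5′ to 3′ on the gene's strand, with Ly6a2 and Ly6f beside them. Capitals mark AGGAAG, a form of the sites of ETS factors such as PU.1, a factor of myeloid cells, read on either strand. The ETS core itself is the shorter GGAA, which was not searched for. The windows are chr15:75111972-75112221 (minus) for Ly6c2, chr15:75048838-75049087 (minus) for Ly6c1, chr15:75155011-75155260 (plus) for Ly6g, chr15:75135129-75135378 (minus) for Ly6a2 and chr15:75268171-75268420 (plus) for Ly6f. The RefSeq start of Ly6g lies inside the gene as GENCODE draws it, so the end of its window overlaps that gene, and positions below are counted from the RefSeq start.
Ly6c2: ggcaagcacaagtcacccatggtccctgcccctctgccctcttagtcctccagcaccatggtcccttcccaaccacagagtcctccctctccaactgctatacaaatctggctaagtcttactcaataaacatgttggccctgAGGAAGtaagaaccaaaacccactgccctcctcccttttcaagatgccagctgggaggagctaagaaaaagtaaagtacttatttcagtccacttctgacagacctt
Ly6a2: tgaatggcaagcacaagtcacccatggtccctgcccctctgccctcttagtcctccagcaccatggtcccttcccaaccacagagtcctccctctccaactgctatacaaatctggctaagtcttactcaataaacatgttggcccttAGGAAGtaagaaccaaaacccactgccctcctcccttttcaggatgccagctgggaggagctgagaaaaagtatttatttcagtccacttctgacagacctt
Ly6c1: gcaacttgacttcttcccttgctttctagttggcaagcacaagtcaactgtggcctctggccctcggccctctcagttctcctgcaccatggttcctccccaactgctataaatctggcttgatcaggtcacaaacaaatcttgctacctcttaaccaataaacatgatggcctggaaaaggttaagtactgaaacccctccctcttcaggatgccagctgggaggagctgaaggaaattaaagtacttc
Ly6g: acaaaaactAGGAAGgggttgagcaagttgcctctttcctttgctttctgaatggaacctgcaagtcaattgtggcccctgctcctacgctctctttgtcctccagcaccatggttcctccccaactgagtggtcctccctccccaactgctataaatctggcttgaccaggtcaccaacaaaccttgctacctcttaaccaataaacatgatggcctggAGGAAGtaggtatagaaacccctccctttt
Ly6f: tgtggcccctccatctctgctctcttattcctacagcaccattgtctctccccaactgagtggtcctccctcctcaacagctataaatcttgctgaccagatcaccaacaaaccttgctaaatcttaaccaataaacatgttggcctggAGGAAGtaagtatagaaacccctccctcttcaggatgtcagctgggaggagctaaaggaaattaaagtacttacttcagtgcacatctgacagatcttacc
The windows of Ly6c2 and Ly6a2 were 98.4% identical, 241 of 245 aligned bases. Those of Ly6g and Ly6f were 88.8% identical, although Ly6g had 550 counts in the EVI1-WT library and Ly6f had 0. The window of Ly6c2 was 75.9% identical to that of Ly6c1 and 72.1% to that of Ly6g.

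AGGAAG occurred 2 times in the window of Ly6g, with first bases at -241 and -30 from the start, and 1 time each in those of Ly6c2 (-107), Ly6a2 (-102) and Ly6f (-101). In the printed letters, the -30 match of Ly6g has nearly the same surroundings as the match of Ly6f. Its position differs with the RefSeq start, where the window ends. AGGAAG occurred 0 times in the window of Ly6c1, whose level was also lower in the EVI1+18 library. The shorter ETS core GGAA does stand in the printed window of Ly6c1, so that window does not lack the core. Of 32851 RefSeq windows of the same length, 29.5% hold AGGAAG. Another 6 motifs were searched on both strands. TGTGGT, the RUNX core, occurred 1 time each in the windows of Ly6c2 and Ly6a2 and in 14.05% of all windows. TTGCNNAA, a C/EBP motif, occurred 1 time each in those of Ly6g and Ly6f and in 9.56% of all. GAAANNGAA of the interferon-stimulated response element (7.13% of all), TTCNNNGAA of STAT sites (7.02%), AGATAA of GATA sites (9.99%) and GACAAGATA of the first zinc finger domain of EVI1 (0.107%) occurred in none of the 5 windows. The last bases of GACAAGATA can overlap AGATAA. A match describes letters in the window and is not a binding site, and no match says only that the letters are not there.

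The rest of the LY6/uPAR family had few reads in these colonies. Of 33 other family genes, 25 had under 10 counts in both libraries, 17 of them 0, and 6 were measured, of which 3 were lower and 1 was higher. The median log2 ratio was -1.64. Cd177, a neutrophil surface protein, had 23 counts in the EVI1+18 library and 171 in the EVI1-WT library and was lower, as were I830127L07Rik (above) and Lypd6b with 30 counts in EVI1+18 and 109 in EVI1-WT. Cd59a, which protects cells from complement lysis, went the other way with 638 counts in EVI1+18 and 83 in EVI1-WT, or 29.7 scaled CPM in EVI1+18 and 4.14 in EVI1-WT. Plaur, the urokinase receptor, had 973 counts in EVI1+18 and 1879 in EVI1-WT, a ratio of 0.483 (0.447 to 0.523), and Ly6g5b had 9 in EVI1+18 and 25 in EVI1-WT. Both were short of the call.

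No gene that builds the anchor was called. Of 29 genes for GPI anchor synthesis and attachment, 28 were measured and 0 were called in either direction. Log2 ratios ran from -0.58 to 0.77 around a median of 0.05. Piga, the catalytic subunit of the first step of the pathway, had 59.9 scaled CPM in the EVI1+18 library and 40.1 in the EVI1-WT library. Pign, which modifies the anchor, had 71.5 in EVI1+18 and 47.2 in EVI1-WT, and Pigx, a subunit of the first mannosyltransferase, had 27.6 in EVI1+18 and 41.2 in EVI1-WT.

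GPI-anchored proteins have no cytoplasmic part and signal through Src family kinases in lipid rafts. Of 10 measured genes of this list, Src was higher, with 34.5 scaled CPM in the EVI1+18 library and 3.50 in the EVI1-WT library, and Pag1, the raft adaptor that recruits Csk, was lower, with 15.2 in EVI1+18 and 57.8 in EVI1-WT. Lyn, with 129 scaled CPM in EVI1+18 and 125 in EVI1-WT, and Fyn, with 58.2 in EVI1+18 and 41.8 in EVI1-WT, were not called. Lck, the kinase of T cells, had 29 counts in EVI1+18 and 65 in EVI1-WT. Of 6 measured integrin genes whose products bind Thy1 or pair with one that does, Itgb3 was higher, with 470 scaled CPM in EVI1+18 and 163 in EVI1-WT. Itgav, its partner on many cells, had 31.8 in EVI1+18 and 47.5 in EVI1-WT, and Itgam, which binds Thy1 on leukocytes, had 74.1 in EVI1+18 and 132 in EVI1-WT, and neither was called.

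Interferons induce Ly6a and Ly6e in mouse cells. Of 10 measured receptor and STAT pathway genes, Jak2 was lower, with 138 scaled CPM in the EVI1+18 library and 389 in the EVI1-WT library, and the other 9 were not called. Ifngr1 had 133 scaled CPM in EVI1+18 and 106 in EVI1-WT and Ifngr2 had 39.9 in EVI1+18 and 74.3 in EVI1-WT. Of 15 measured interferon response genes, 2 were higher and 1 was lower, around a median of 0.17 (log2). One of the higher genes, Mx2, passed the filter through the EVI1+18 library alone. Mx1, an antiviral GTPase, had 31.97 scaled CPM in EVI1+18 and 3.84 in EVI1-WT, Mx2 had 32 counts in EVI1+18 and 3 in EVI1-WT, and Ifi27l2a had 4.33 scaled CPM in EVI1+18 and 22.6 in EVI1-WT. The log2 ratio of Ly6e, -0.22, lay inside the range of that list, -2.35 to 3.02.

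The antigens were then set beside other genes of the cell types they are used to mark. The summed level of the 13 neutrophil genes listed was 1079 scaled CPM in the EVI1+18 library and 3063 in the EVI1-WT library. Of 12 measured, 7 were lower and 0 higher, the same counts as among the 10 past the filter in both libraries. Their median log2 ratio was -1.51, and each of the 12 had a higher log2 ratio than Ly6g. Cxcr2, the chemokine receptor of mature neutrophils, had 12.5 scaled CPM in EVI1+18 and 75.7 in EVI1-WT, and Ly6g was lower by a further 2.78-fold relative to it (1.93 to 4.004). Relative to Cd177 the factor was 2.11 (1.22 to 3.68), and relative to S100a9, which encodes a calprotectin subunit, it was 5.78 (4.10 to 8.14). Mmp9 went the other way with 40 counts in EVI1+18 and 13 in EVI1-WT, a ratio whose interval crosses 2. The genes against which Ly6g, Ly6c2, Ly6a and Thy1 were set were picked after the values were seen. The part of cell makeup in the ratio of Ly6g was not tested.

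Of 10 measured genes of the inflammatory monocyte list, 7 had a log2 ratio above 0, where that of Ly6c2 was -2.19. Among the 8 past the filter in both libraries, 2 were higher and 0 lower, around a median of 0.52 (log2), and the summed level of the whole list was 583 scaled CPM in the EVI1+18 library and 331 in the EVI1-WT library. Fcgr1, a high-affinity IgG receptor, had 9.69 scaled CPM in EVI1+18 and 1.05 in EVI1-WT, and the transcription factor gene Klf4, past the filter through the EVI1+18 library alone, had 39 counts in EVI1+18 and 5 in EVI1-WT. Ms4a6c had 89 counts in EVI1+18 and 172 in EVI1-WT and was not called. Of the listed genes under the filter, Ly86 had 0 counts in EVI1+18 and 1 in EVI1-WT. Each of the 10 had a higher log2 ratio than Ly6c2. Beside the neutrophil list, a comparison added after the values were seen, Ly6c2 lay inside the range of log2 ratios. That range was -2.89 to 1.39, around a median of -1.51. Relative to Ccr2, the receptor by which monocytes leave the marrow, Ly6c2 was 3.15-fold lower (2.82 to 3.52), and relative to Csf1r it was 8.74-fold lower (7.81 to 9.79). These 2 genes differed in opposite directions and neither was called. Ccr2 had 30.3 scaled CPM in EVI1+18 and 44.0 in EVI1-WT, and Csf1r had 51.5 in EVI1+18 and 27.0 in EVI1-WT.

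Of 8 measured stem and progenitor genes, 5 were past the filter in both libraries. Among those 5, 1 was higher and 0 lower, around a median of 0.44 (log2), where the log2 ratio of Ly6a was -1.23, and the summed level of the whole list was 190 scaled CPM in the EVI1+18 library and 167 in the EVI1-WT library. Slamf1 (CD150), past the filter through the EVI1+18 library alone, had 26.5 scaled CPM in EVI1+18 and 0.499 in EVI1-WT, and Kit had 11.8 in EVI1+18 and 3.15 in EVI1-WT. Mycn had 40.9 scaled CPM in EVI1+18 and 74.2 in EVI1-WT and was not called. Cd48, also not called, had 85.9 in EVI1+18 and 80.9 in EVI1-WT. Cd48 and Mycn held most of the summed level in each library, so the sum says little about the rest of the list. Hlf, Fgd5 and Hoxb5, which mark stem cells, had 0 counts in both libraries. The part of cell makeup in the ratios of Ly6c2 and Ly6a was not tested. Relative to Kit, the partner of Sca-1 in the usual stem cell gate, Ly6a was 8.85-fold lower (6.56 to 11.9).

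Few lymphoid genes were measured beside Thy1. Of 14 genes of the T, NK and innate lymphoid list, 10 had under 10 counts in both libraries, among them the CD3 chains of the T cell receptor complex, Cd3e with 0 counts in EVI1+18 and 2 in EVI1-WT, Cd3d with 2 in EVI1+18 and 6 in EVI1-WT and Cd3g with 4 in EVI1+18 and 0 in EVI1-WT. The 4 measured ones were not called, and the whole list summed to 59.6 scaled CPM in the EVI1+18 library and 76.2 in the EVI1-WT library. Tcf7 had 4.01 scaled CPM in EVI1+18 and 8.74 in EVI1-WT. The mast cell and basophil list had 10 measured genes, 7 lower and 1 higher, around a median of -2.66 (log2). The summed level of the whole list was 829 scaled CPM in the EVI1+18 library and 5614 in the EVI1-WT library. Hdc, which makes histamine, had 71.2 scaled CPM in EVI1+18 and 1178 in EVI1-WT, and Cpa3, a granule protease, had 196 in EVI1+18 and 2409 in EVI1-WT. Prss34, a basophil protease, was higher with 7.41 in EVI1+18 and 1.60 in EVI1-WT.

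Thy1 differed less than Cpa3 between the libraries: its counts equalled 56.9% of those of Cpa3 in the EVI1+18 library and 12.3% in the EVI1-WT library. Relative to Ms4a2, the beta chain of the IgE receptor, Thy1 was 1.37-fold lower (1.25 to 1.496). Whether the mast cell and basophil content has a part in the ratio of Thy1 was not tested.

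**Figure D5:**
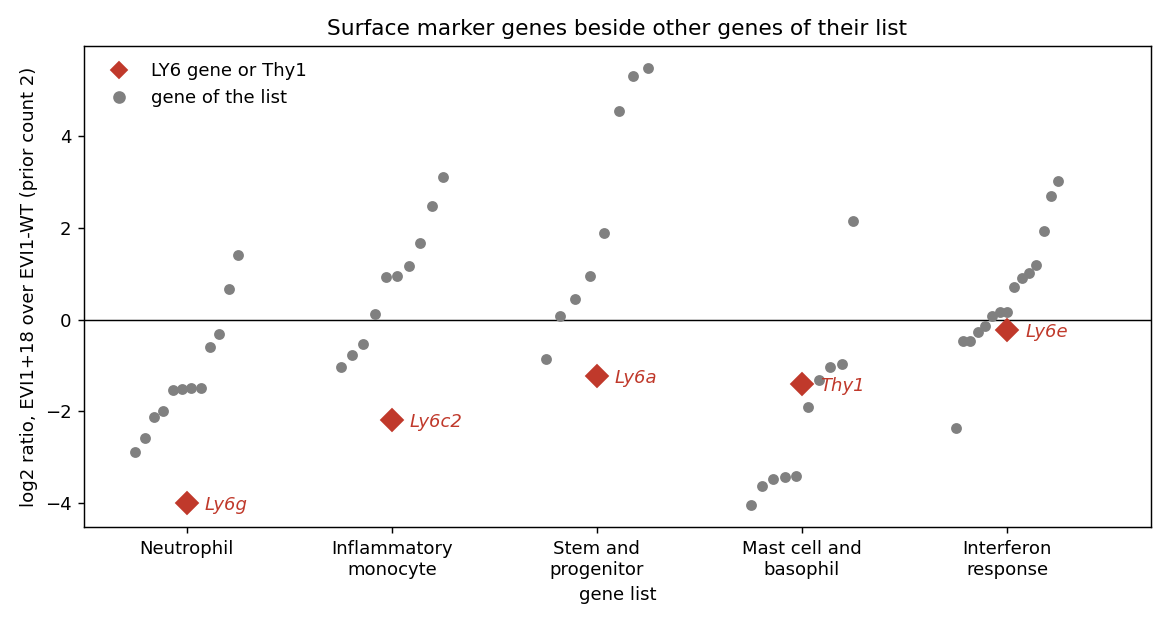
Log2 ratio of scaled counts with a prior count of 2, EVI1+18 over EVI1-WT, for an antigen gene (red diamonds) beside each measured gene of a list (grey points, ordered by value). Ly6g, Ly6c2 and Ly6a lie below every point of the neutrophil, monocyte and stem cell lists, while Thy1 and Ly6e lie within the mast cell and basophil list and the interferon list.

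Other cell type lists also differed between the libraries. Of 8 measured erythroid and megakaryocytic genes, 7 were higher and 0 lower, and the summed level of the whole list was 7703 scaled CPM in the EVI1+18 library and 1327 in the EVI1-WT library. Pf4, a platelet chemokine, had 347 scaled CPM in EVI1+18 and 4.94 in EVI1-WT. Of 4 plasmacytoid dendritic genes past the filter in both libraries, 1 was higher, Irf8 with 223 counts in EVI1+18 and 40 in EVI1-WT, and Bst2 had 1904 in EVI1+18 and 2568 in EVI1-WT. Of the B lymphoid genes, Cd79b alone passed in both, with 45 counts in EVI1+18 and 65 in EVI1-WT. Cox6a2 of the plasmacytoid list had 213 counts in EVI1+18 and 2 in EVI1-WT, and the B lymphoid genes Cd22 and Blnk had 255 and 23 in EVI1+18 and 15 and 1 in EVI1-WT. These 3 passed the filter only through the library in which they were high. Of 9 endothelial and stromal genes 2 were measured, Pdgfrb, past the filter through the EVI1-WT library alone, with 19 counts in EVI1+18 and 80 in EVI1-WT and Pecam1 having 5748 in EVI1+18 and 8547 in EVI1-WT, while Cdh5 had 1 count in EVI1+18 and 0 in EVI1-WT and Kdr had 0 in EVI1+18 and 2 in EVI1-WT. The part of these cell types in the ratios of the LY6 genes was not tested.

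By level in the pair of libraries, the genes most like each antigen were found by the distance between their log2 scaled CPM values. Gpr174 was nearest to Ly6a, with 18.6 scaled CPM in the EVI1+18 library and 44.4 in the EVI1-WT library. Lama5 was nearest to Ly6c2 with 113 in EVI1+18 and 581 in EVI1-WT, and BC064078 to Ly6g with 1.91 in EVI1+18 and 23.0 in EVI1-WT. Laptm5 was nearest to Ly6e with 1313 in EVI1+18 and 1548 in EVI1-WT, and Pld3 to Thy1 with 114 in EVI1+18 and 281 in EVI1-WT. With only 2 values per gene, such likeness describes levels and nothing more.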

How the data were processed

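RNA from 1 culture per vector was sequenced, and the values are counts of reads per Ensembl gene, which the authors deposited without normalization. The submitters' processing notes name the build GRCm38 and the tools HISAT2 2.2.1 and SAMtools beside featureCounts from Subread, and also edgeR; the sources used here give neither order nor settings. The strand setting is unknown, so reads of antisense partners cannot be separated, and where near copies share sequence their reads may have been split or dropped.

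Of 55487 IDs, 55141 matched GENCODE M21. The unmatched IDs held 0.0429% of the counts of the EVI1+18 library and 0.0487% of those of the EVI1-WT library. No column was left unmapped (0). Libraries were scaled with edgeR 4.0.16 (TMM, R 4.3.3), and ratios and exact intervals were computed with scipy 1.17.1. Log2 ratios used a prior count of 2. With 1 library per group no test could be run. Intervals cover counting error only, because each group has 1 library. Reads that lack molecular identifiers may repeat a molecule, so even the counting error may be larger than the intervals state.

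The 9 genes and the gene lists were chosen with earlier results of these data known. Named were the 9 genes, genes of the Ly6 region with at least 10 counts in a library, from every other list the 2 measured genes with the largest conservative fold (the bound nearest to 1) and 1 in the other direction, and the gene nearest in level to each antigen of at least 10 scaled CPM. Genes named beyond this, such as Lyn, Fyn, Kit, Plaur, Mx2 and the marker pairs, were chosen after their values were seen. Some genes that the rule takes are not reported here. Alternatives changed the scaling, the filter, the fold, the prior count, the gene length and the summing of near copies.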

Additional observations from a re-analysis of the deposited data

How the results depend on the processing

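Of the 85 values recomputed under the alternatives, 73 equalled the main value, lay within its counting interval or within 1.5 times the main count. The recomputed log2 ratios of single genes kept their sign. The other values are counts, which have no direction. With library totals alone, 4 of the group's genes were lower, Ly6a falling short. Ly6e had a log2 ratio of -0.19 with DESeq2 size factors, -0.15 with library totals and -0.17 with library totals without the 20 genes with the most counts. Summed, Ly6a, Ly6c1 and Ly6c2 had a log2 ratio of -2.08. Most of these counts are those of Ly6c2, so the sum says nothing about Ly6a by itself. A 3-fold rule left 2 genes of the group lower (Ly6c2 and Ly6g) and 3 genes of the Ly6 region. Over all measured genes, lower calls numbered 1290 with a 1.5-fold rule and 344 with a 3-fold rule, against 672. Higher calls numbered 1093, 401 and, with a filter of 5 scaled CPM, 431, against 666. For fold and filter, the cause of these shifts lies in the rules themselves. A change of scaling moves the log2 ratios of all genes by nearly the same amount. The median over all measured genes was 0.03 with DESeq2 size factors and 0.07 with library totals, against 0.01. Without the 20 genes with the most counts it was 0.06. No paired analysis was possible because each vector has 1 library, and no library could be left out. The 35 counts of Ly6g and 31 of Ly6c1 in the EVI1+18 library limit the precision of their ratios.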
